A study of Homo sapiens with 8 samples.

Results

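SQ20B is an established human cell line from a head and neck squamous cell carcinoma. Its poly(A)+ RNA was sequenced in 4 replicates under normoxia and in 4 replicates kept for 16 h in 0.5% O2, with no other treatment or allele separating the conditions. The deposited table lists for each RefSeq transcript a single FPKM for normoxia and another for hypoxia, each over its replicates; FPKM is a fragment count corrected for transcript length and library size. The genes described here are the plasminogen activators *PLAU* and *PLAT*, the urokinase receptor *PLAUR*, the matrix metalloproteinases *MMP1*, *MMP9* and *MMP14*, and the tissue inhibitors of metalloproteinases *TIMP1*, *TIMP2* and *TIMP3*. They were taken by symbol, and every table entry whose RefSeq identifier belonged to them was used. This gave 12 transcripts of 8 genes, among 24812 transcripts and 14528 named genes in all. No entry carried an identifier of *MMP9*, which is not analysed here. Because each condition was available as 1 value, the differences below have no replicate spread, error or test. They are sizes of change in these libraries.

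Urokinase (PLAU) and tissue plasminogen activator (PLAT) are serine proteases that cut plasminogen to plasmin, which degrades fibrin and matrix proteins and can activate some metalloproteinase precursors. Urokinase works largely at the cell surface, bound to its receptor (PLAUR), and both activators are inactivated by serpins. Metalloproteinases cleave collagens and other matrix components, MMP14 from its place in the plasma membrane, and TIMP proteins block them by binding the active site. In squamous carcinomas this system is known for its part in matrix breakdown and invasion.

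Changes are given as log2 of hypoxia over normoxia after 0.1 FPKM was added to each value, and a gene's FPKM is the sum over its listed transcripts. All 8 genes had a mean FPKM over the conditions of at least 0.5, the lowest level at which a fold was read. *PLAT*, *TIMP3* and *MMP14* were at least 1.5-fold higher in hypoxia, *PLAU* was at least 1.5-fold lower, and *PLAUR*, *MMP1*, *TIMP1* and *TIMP2* lay within 1.5-fold. Thus 3 of the 8 genes (37.5%) passed this size upward, where 9.95% of the 12106 named genes at this level did, and 1 of 8 (12.5%) passed it downward, where 11.2% did. The median log2 change of the 8 genes was 0.17, and that of all these genes was -0.07. The upward count is small, and *MMP14*, at 1.53-fold, was just inside the limit. The share of all genes passing upward also depended on the scaling of the columns. It was 9.95% as deposited, 12.4% after median centring, 11.6% after quantile normalization and 18.6% with the columns scaled to equal FPKM sums. Of all genes past 1.5-fold in either direction, 46.9%, 58.6%, 57.8% and 78.9% were higher in hypoxia, in the same order.

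**Figure D1:**
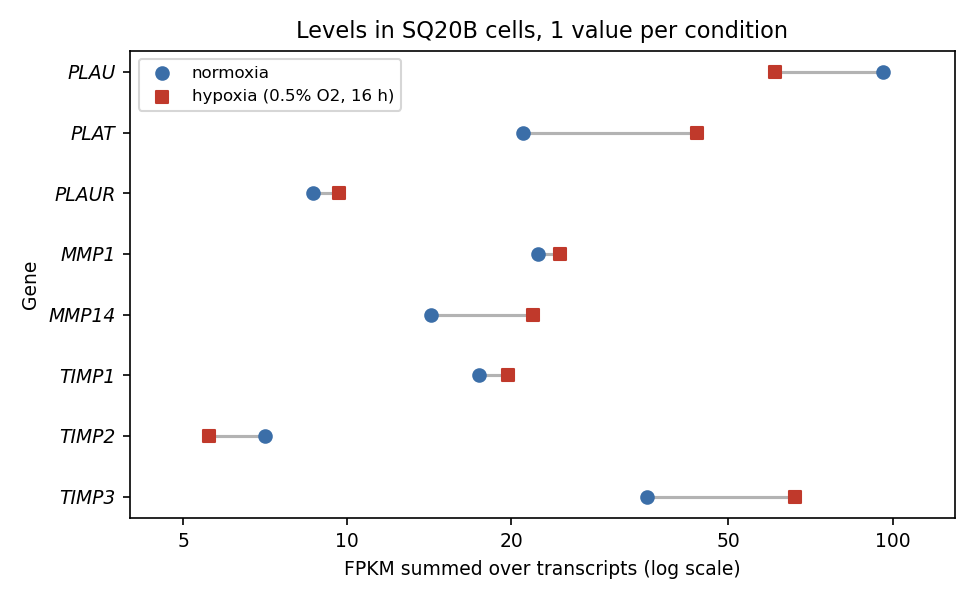
Summed FPKM (log scale) of each gene in normoxia (circles) and hypoxia (squares), with a grey line joining the conditions; each point is 1 value over the replicates, so no error bar is drawn. *PLAU* stood highest in normoxia at 96.2 FPKM and *TIMP3* in hypoxia at 66.3 FPKM.

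Promoter windows of RefSeq (build GRCh38.p14, 250 bases before to 50 after a start site, 300 in all) were at hand for 5 of the genes, in 6 windows. The windows of the genes past 1.5-fold are printed because these genes differed most between the conditions. For *PLAU*, only the window that held a match to the motifs below is printed. A window for *PLAT* was not used here. Each is written 5′ to 3′ on the gene's strand. Capitals mark matches, on either strand, to the hypoxia response element cores ACGTG and GCGTG, the AP-1 motif TGANTCA and CAGGAA, an ETS-type motif. A match on the other strand reads as the reverse complement, so that CACGT stands for ACGTG and CACGC for GCGTG.
*TIMP3*, plus strand, chr22:32801455-32801754: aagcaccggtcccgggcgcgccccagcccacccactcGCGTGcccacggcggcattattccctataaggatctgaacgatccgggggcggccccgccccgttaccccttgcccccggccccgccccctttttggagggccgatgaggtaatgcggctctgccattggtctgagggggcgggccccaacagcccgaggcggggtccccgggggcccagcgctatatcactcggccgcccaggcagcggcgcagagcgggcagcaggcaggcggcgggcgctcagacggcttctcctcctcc
*MMP14*, plus strand, chr14:22836335-22836634: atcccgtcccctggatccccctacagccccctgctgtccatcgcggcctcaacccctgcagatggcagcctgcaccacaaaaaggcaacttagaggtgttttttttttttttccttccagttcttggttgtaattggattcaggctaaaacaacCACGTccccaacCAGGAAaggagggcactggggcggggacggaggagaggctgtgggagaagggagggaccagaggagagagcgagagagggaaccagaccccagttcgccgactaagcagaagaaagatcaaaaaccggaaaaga
*PLAU*, plus strand, chr10:73910882-73911181: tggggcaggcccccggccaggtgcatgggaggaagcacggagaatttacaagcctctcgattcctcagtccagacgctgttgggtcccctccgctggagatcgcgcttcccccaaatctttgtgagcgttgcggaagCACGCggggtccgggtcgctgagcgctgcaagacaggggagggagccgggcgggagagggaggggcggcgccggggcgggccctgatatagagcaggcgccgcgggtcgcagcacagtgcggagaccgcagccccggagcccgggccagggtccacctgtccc

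The *TIMP3* window held GCGTG at position -213 from the start site, and *MMP14* held ACGTG at -96 and CAGGAA at -84. The printed *PLAU* window held GCGTG at -113, and the other *PLAU* window (chr10:73910360-73910659) held none of these motifs. GC content was 72.7% in the *TIMP3* window, 55.0% in that of *MMP14* and 70.0% in the printed *PLAU* window, against a median of 58.7% over all windows. Genes that lay within 1.5-fold carried such matches too. The *PLAUR* window held a match to each of these motifs, and that of *TIMP1* to each but TGANTCA. Over the 6 windows, ACGTG was in 3, GCGTG in 4, TGANTCA in 1 and CAGGAA in 3. Among all 35116 windows of this length, 21.4% held ACGTG, 36.5% GCGTG, 7.71% TGANTCA and 28.4% CAGGAA. The shorter ETS core GGAA, found in all 6 windows, was present in 95.5% of the whole set. The matches describe letters only, and GCGTG was found beside genes that were higher, lower and nearly level in hypoxia.

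*PLAU* was listed at 96.2 FPKM in normoxia and 60.7 FPKM in hypoxia. It was thus 1.58-fold lower in hypoxia, a log2 change of -0.66, and 8.50% of all genes had a lower change. *PLAU* was the most abundant of the 8 genes in normoxia, with a mean level above that of 90.8% of genes. Nearly all of it came from NM_002658, listed at 96.0 and 60.7 FPKM. The other transcript, NM_001145031, stood at 0.219 FPKM in normoxia and 0.0499 in hypoxia, too low for a fold to be read. The gene lies on the plus strand of chromosome 10 (75668935 to 75677254 in GRCh37, the build named hg19 in the processing notes; GENCODE annotation). The noncoding gene *C10orf55* overlaps it on the minus strand, and an identifier without a matched symbol in the same table interval, NM_001001791, was listed at 1.97 and 1.34 FPKM. The change of *PLAU* shrank to -0.44 with equal FPKM sums and to -0.42 with quantile normalization, which is within 1.5-fold.

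*PLAT* moved the other way, with 21.0 FPKM in normoxia and 43.8 FPKM in hypoxia. It was 2.08-fold higher in hypoxia, a log2 change of 1.06, the largest of the 8 genes, and 97.2% of all genes had a lower change. The gene lies on the minus strand of chromosome 8 (42032236 to 42065227). Its transcript NM_000930 carried 98.7% of the gene's normoxic and 99.3% of its hypoxic FPKM, at 20.7 and 43.5 FPKM. NM_033011 stayed near the lower end of the table, at 0.269 and 0.326 FPKM. Since FPKM is scaled by transcript length, the activators can be set against each other. *PLAU* exceeded *PLAT* 4.58-fold in normoxia and 1.39-fold in hypoxia, and the *PLAT* part of their summed FPKM went from 17.9% to 41.9%. The sum itself was 117 FPKM in normoxia and 105 FPKM in hypoxia, a log2 change of -0.16. The composition thus differed more than the total. Scaling to equal FPKM sums raises hypoxia by 0.226 in log2, so the sign of the total's change depended on the scaling.

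*PLAUR*, which encodes the cell surface receptor that concentrates urokinase, was listed at 8.64 FPKM in normoxia and 9.68 FPKM in hypoxia, a log2 change of 0.16. It lies on the minus strand of chromosome 19 (44150247 to 44174699) and, alone among the 8 genes, had several transcripts whose mean reached 0.5 FPKM. NM_002659, which encodes the receptor with its membrane anchor, was listed at 3.79 and 5.04 FPKM, a log2 change of 0.40. NM_001005376, whose protein ends differently and lacks the anchor, was nearly level, at 3.41 and 3.30 FPKM (-0.05). NM_001005377 was listed at 1.44 and 1.34 FPKM (-0.09). NM_002659 made up 43.9% of the gene's FPKM in normoxia and 52.1% in hypoxia, and NM_001005376 made up 39.5% and 34.1%. All 3 lay within 1.5-fold as deposited. With equal FPKM sums, NM_002659 reached 0.62 and passed 1.5-fold, and NM_001005376 and NM_001005377 turned to 0.17 and 0.12, so the sign of the smaller changes depended on the scaling. With median centring NM_001005376 stood at 0.02. The division of reads among these overlapping transcripts is an estimate by the authors' software, and its error was not analysed here.

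**Figure D2:**
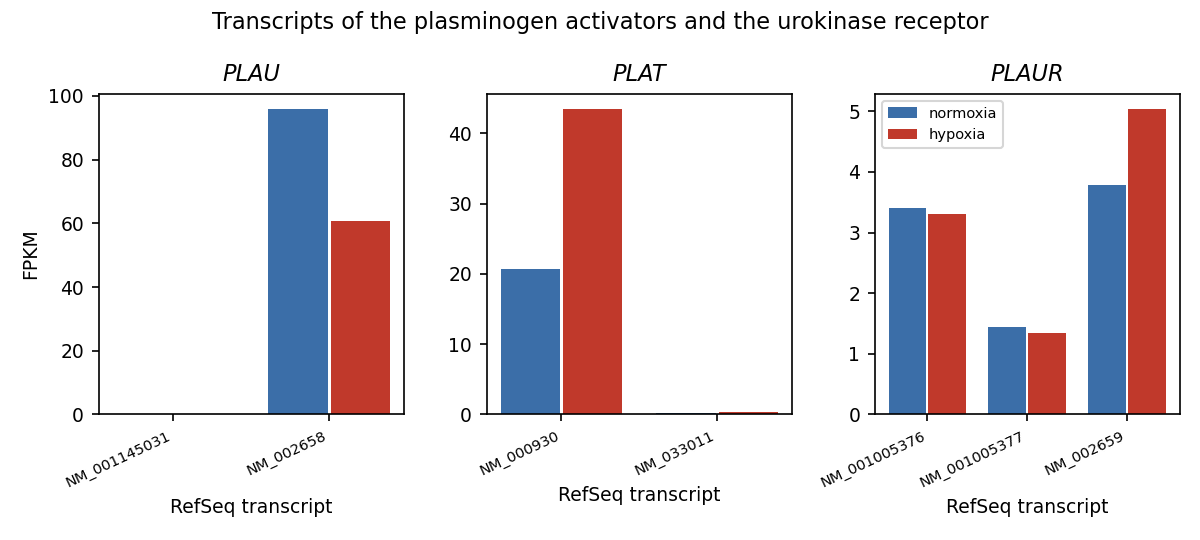
FPKM of each listed transcript of *PLAU*, *PLAT* and *PLAUR* in normoxia (blue bars) and hypoxia (red bars), 1 value per condition and a separate axis from 0 for each gene. *PLAU* and *PLAT* were each carried by 1 transcript, while *PLAUR* was divided among 3.

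Counted by transcript, 10 of the 12 had a mean FPKM of at least 0.5. Of these, 3 (30.0%) were at least 1.5-fold higher and 1 (10.0%) at least 1.5-fold lower in hypoxia, and over 18190 transcripts at this level the shares were 10.5% and 14.3%. These transcripts are NM_000930 of *PLAT*, NM_000362 of *TIMP3*, NM_004995 of *MMP14* and NM_002658 of *PLAU*, so the count repeats that by gene. Of the 8 genes, 5 (*MMP1*, *MMP14*, *TIMP1*, *TIMP2* and *TIMP3*) were listed with 1 transcript each.

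Among the other plasminogen system genes, most lay within 1.5-fold. *SERPINB2* (PAI-2), an inhibitor of urokinase, was listed at 2.73 FPKM in normoxia and 1.44 FPKM in hypoxia, 1.84-fold lower (log2 change -0.88). *SERPINE2* (protease nexin-1) was listed at 22.9 and 31.4 FPKM (0.45), within 1.5-fold, and stood above *SERPINB2* in both conditions. *S100A10*, which pairs with annexin A2 to hold plasminogen and *PLAT* protein at the cell surface, stood at 307 and 464 FPKM (0.60), just past 1.5-fold. *ANXA2* is not analysed here. Of the 16 genes of this list, 11 were listed and 8 had a mean of at least 0.5 FPKM. Of these 8, 1 was higher and 1 lower past 1.5-fold (12.5% each), near the 9.95% and 11.2% of all genes. The median log2 change of the 8 was 0.07 as deposited, -0.02 with 1 FPKM added and 0.28 with equal FPKM sums. It was 0.56 with equal sums where the limit of 0.5 FPKM was applied again to the scaled values. *SERPINA5*, at 0.214 and 0.711 FPKM as deposited, then reached the limit through its scaled hypoxia value and entered the list.

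*MMP1*, the interstitial collagenase, was listed at 22.4 FPKM in normoxia and 24.6 FPKM in hypoxia, a log2 change of 0.13. *MMP14*, the membrane-type metalloproteinase that activates the precursor of MMP2, was listed at 14.3 and 21.9 FPKM. It was 1.53-fold higher in hypoxia, a log2 change of 0.61, and 90.8% of all genes had a lower change. With 1 FPKM added in place of 0.1, its change was 0.58 and fell just short of 1.5-fold. *MMP1* lies on the minus strand of chromosome 11 (102660132 to 102668891), where the pseudogene *WTAPP1* overlaps it on the other strand, at 0.290 and 0.440 FPKM. *MMP14* lies on the plus strand of chromosome 14 (23305769 to 23318250), and no other annotated gene overlaps it.

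*MMP1* belongs to a cluster of metalloproteinase genes on chromosome 11, and 6 of them were listed over 435 kb (102391239 to 102826461). The neighbours did not share 1 change. *MMP10* (stromelysin-2), 4.76 and 7.59 FPKM, was 1.58-fold higher in hypoxia, with a log2 change of 0.66. *MMP13* (collagenase-3), at 43.9 and 63.8 FPKM, had 0.54 and lay just within 1.5-fold. *MMP7*, *MMP3* and *MMP12* had log2 changes of 0.07, -0.06 and -0.08. *MMP12*, the macrophage elastase, was the most abundant of the MMP genes, at 80.3 and 75.8 FPKM, or 38.1% and 32.2% of the summed FPKM of all listed MMP genes. *MMP1* made up 10.6% and 10.4% of that sum, and *MMP14* 6.78% and 9.28%. *MMP2* (gelatinase A) was near the lower limit, at 0.873 and 1.45 FPKM (0.67), and with 1 FPKM added neither it nor *MMP10* passed 1.5-fold. Of the 11 MMP genes whose mean reached 0.5 FPKM, 8 lay above 0 as deposited, against 43.6% of all genes, and all 11 did with equal FPKM sums, where 63.7% of all genes did. None of the 11 was at least 1.5-fold lower in either case. Of all genes, 11.2% were so as deposited and 4.99% with equal FPKM sums, so a count of 0 among 11 is near these shares.

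*TIMP3*, an inhibitor that binds to the extracellular matrix and also blocks several ADAM proteases, was listed at 35.5 FPKM in normoxia and 66.3 FPKM in hypoxia. It was 1.87-fold higher in hypoxia, a log2 change of 0.90, and 95.8% of all genes had a lower change. *TIMP1*, a soluble inhibitor with a wide range of metalloproteinase targets, was listed at 17.4 and 19.7 FPKM (0.18). *TIMP2*, which also takes part in the activation of the MMP2 precursor by MMP14, was the least abundant of the 8 genes in both conditions, at 7.08 and 5.58 FPKM (-0.34). *TIMP3* was thus the only one of the 3 inhibitors past 1.5-fold, under each scaling and added constant that was tried. Together they summed to 60.0 FPKM in normoxia and 91.6 FPKM in hypoxia, and *TIMP3* made up 59.1% and 72.4% of these sums. The share of *TIMP1* was 29.1% and 21.6%, and that of *TIMP2* 11.8% and 6.09%. *TIMP2* stood below *MMP14*, at 0.496 times its FPKM in normoxia and 0.255 times in hypoxia.

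*TIMP3* lies on the plus strand of chromosome 22 (33197691 to 33259028), inside *SYN3*, which runs on the minus strand. *SYN3* was listed at 0.143 and 0.203 FPKM, far below *TIMP3*. *TIMP1* lies on the plus strand of the X chromosome (47441807 to 47446188) within *SYN1*, which is on the minus strand and is not analysed here. *TIMP2* spans positions 76849059 to 76921469 of chromosome 17, on the minus strand. Of the 4 annotated genes that overlap it, *CEP295NL* is protein coding and lies on the same strand. It is not analysed here. The libraries were stranded, but whether strand was used when reads were assigned is not given in the sources used here, so reads of such overlapping genes may not have been told apart.

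Ordered by level, normoxia gave *PLAU*, *TIMP3*, *MMP1*, *PLAT*, *TIMP1*, *MMP14*, *PLAUR* and *TIMP2*. In hypoxia the order was *TIMP3*, *PLAU*, *PLAT*, *MMP1*, *MMP14*, *TIMP1*, *PLAUR* and *TIMP2*. Several neighbours were close, among them *MMP1* and *PLAT* in normoxia (1.07-fold apart) and *TIMP3* and *PLAU* in hypoxia (1.09-fold apart), and without replicate values it could not be judged which neighbours differ. For the 3 genes with the largest changes, the genes most like them were found by Euclidean distance in log2 FPKM over the 2 condition values. For *PLAT* these were *VEGFA*, *SYNE2* and *ETS2* at distances of 0.03, 0.04 and 0.11. They were *SLFN11*, *OSMR* and *HBP1* for *TIMP3*, at 0.04, 0.08 and 0.10, and *GART*, *NAA50* and *MRPS18B* for *PLAU*, at 0.01, 0.03 and 0.06. With 2 values per gene such likeness says only that the levels were close in each condition.

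**Figure D3:**
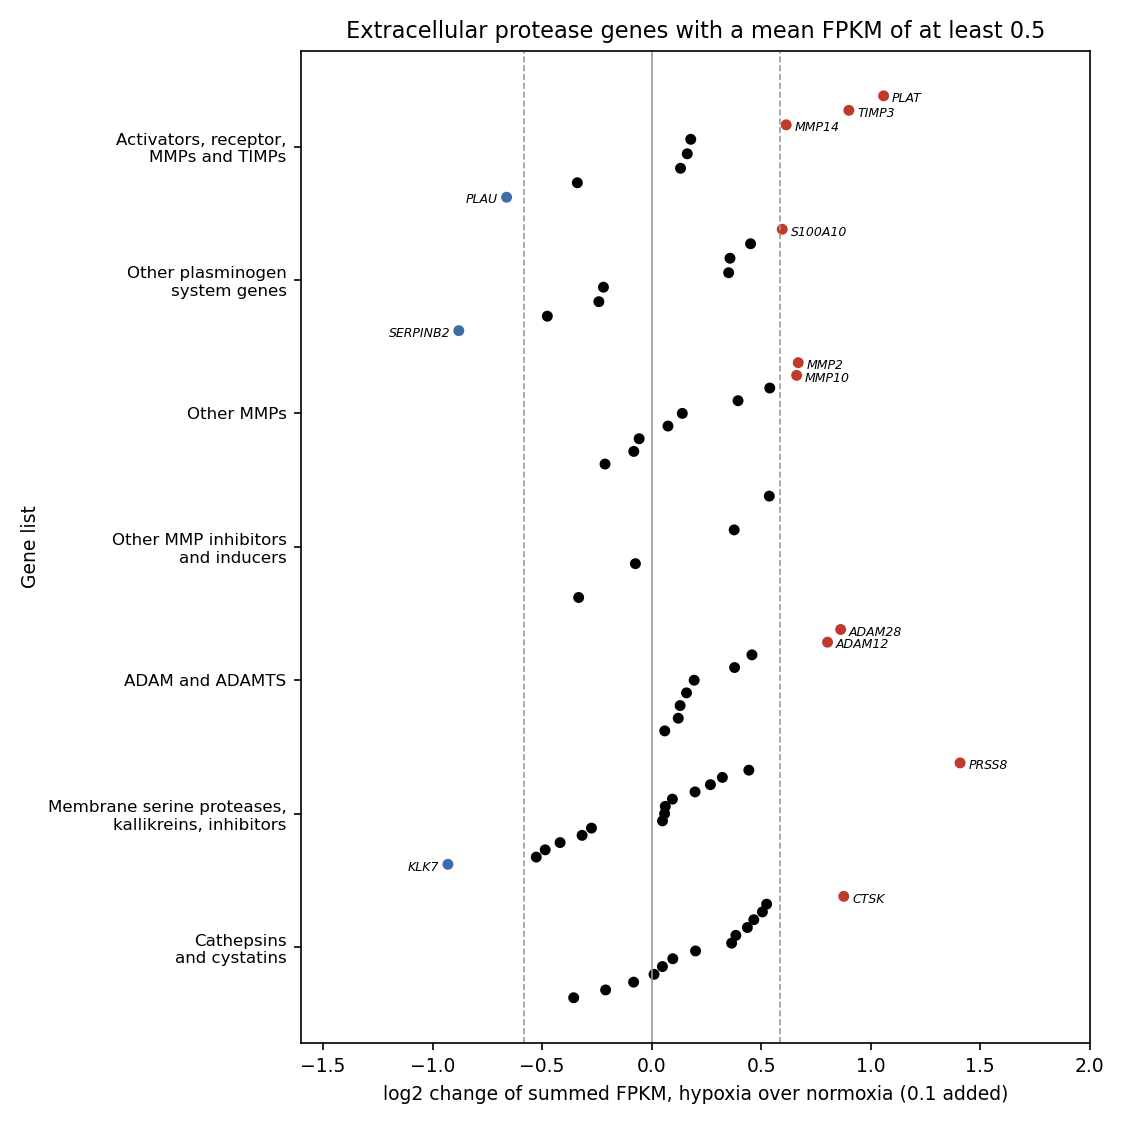
log2 change of summed FPKM, hypoxia over normoxia, for each gene of 7 lists whose mean reached 0.5 FPKM (1 point per gene, spread vertically within its list for legibility); red and blue points, named, are at least 1.5-fold higher or lower, and dashed lines mark that size. *PRSS8* lay farthest out at 1.41, and most genes lay between the dashed lines.

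Proteases and inhibitors outside the 8 genes were compared through 6 lists of 88 genes, of which 68 were listed and 59 reached a mean of 0.5 FPKM. Among the 59, 7 (11.9%) were at least 1.5-fold higher and 2 (3.39%) at least 1.5-fold lower in hypoxia, against 9.95% and 11.2% of all genes, and their median log2 change was 0.14. The upward share was thus near that of all genes. Among the 9 ADAM and ADAMTS genes, which encode sheddases and matrix proteases, all lay above 0 under each scaling, with a median of 0.19 as deposited, while of all genes 43.6% lay above 0 as deposited and 63.7% with equal FPKM sums. *ADAM12* (0.452 and 0.862 FPKM) and *ADAM28* (0.767 and 1.48 FPKM) passed 1.5-fold at low levels, and neither did with 1 FPKM added. *ADAM17*, the main sheddase of TNF and a target of TIMP3, was listed at 27.4 and 37.7 FPKM (0.46). Of the other metalloproteinase inhibitors and inducers, none of 4 passed 1.5-fold. *RECK*, a membrane-anchored inhibitor, was listed at 1.10 and 1.65 FPKM (0.54), *TIMP4* at 2.87 and 2.25 FPKM (-0.33), and *BSG* (EMMPRIN), an inducer of metalloproteinases, at 31.0 and 40.3 FPKM (0.38).

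**Figure D4:**
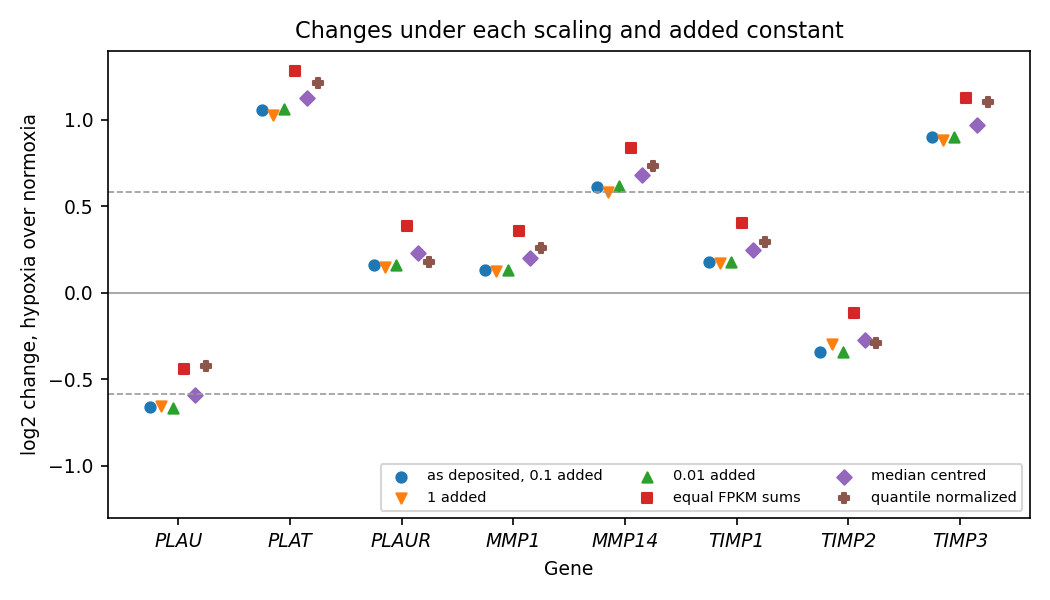
log2 change of each of the 8 genes under 6 ways of computing it (1 symbol each), with dashed lines at 1.5-fold; scaling to equal FPKM sums gave the highest value for every gene but *PLAU*. *PLAT* and *TIMP3* stayed past 1.5-fold in all 6, and no gene changed sign.

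Genes known to respond to hypoxia checked the condition labels: all 9 that were listed, *CA9*, *BNIP3* and *EGLN3* among them, were at least 1.5-fold higher in hypoxia, with log2 changes from 1.02 to 4.77. Markers of squamous epithelium were listed for 8 of 10 genes and summed to 621 FPKM in normoxia and 681 FPKM in hypoxia, with *KRT5* at 398 and 442 FPKM and *TP63* at 42.8 and 44.6 FPKM. Of these 8, 4 lay above 0 and 4 below, with a median log2 change of -0.07, and 1 was at least 1.5-fold lower, *KRT6A* at 5.10 and 3.26 FPKM (-0.63). Fibroblast markers, listed for 2 of 6 genes, summed to 0.175 and 0.210 FPKM. Leukocyte markers were listed for 2 of 4 genes and summed to 2.48 and 2.99 FPKM, nearly all from *CD68*, and the endothelial list held only *CDH5*, at 4.78 and 2.83 FPKM. Their part in the differences above was not tested. In bulk RNA, fewer cells with a transcript and less of it per cell cannot be told apart.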

How the data were processed

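Poly(A)-selected, stranded libraries of SQ20B cells, 4 per condition, were aligned by the authors with STAR (version 2.3.0.1) to RefSeq hg19 and analysed with Cufflinks (version 2.1.1). The deposited table holds FPKM values, 1 per transcript and condition over its replicates. It also holds the authors' own fold changes, test statistic, p-values and q-values, which were not used here. Conditions were taken from the source labels, since the hypoxia text of the treatment field is repeated for every sample. Depth per sample was not analysed, so no interval or floor is given.

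RefSeq identifiers were paired with symbols through the annotation of GRCh38.p14 (97.9% of transcripts matched). FPKM was summed per gene, 0.1 was added before log2, and folds were read at a mean FPKM of at least 0.5. With 1 value per condition no test was possible, and 1.5-fold served as a size limit. Genes were named by rule: the 8 genes, listed protease genes past 1.5-fold, and a fixed set of inhibitors and metalloproteinases. Named additionally were neighbouring, overlapping and marker genes and a few list genes with known links to them, chosen after their values were seen. The genes and lists were chosen with earlier results of these data known, and 1 gene of the lists is not reported here and was left out of their counts. Protein sequences were not used here. Gene sums, log2 changes and calls were checked by putting known folds, without noise, into the measured normoxia values. Python 3.11.15, numpy 2.4.6, pandas 2.3.3 and matplotlib 3.10.9 were used.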

Additional observations from a re-analysis of the deposited data

How the results depend on the processing

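No paired analysis was possible because each condition was available as 1 value over its replicates, and for the same reason leaving out single replicates was not run. The shift of the median of all genes was 0.22 with equal FPKM sums and under 0.1 with the other scalings. All 8 genes kept their direction under each scaling and added constant tried, and with the most abundant transcript alone. Their log2 changes ranged from 1.03 to 1.28 for *PLAT*, from 0.88 to 1.13 for *TIMP3*, from 0.58 to 0.84 for *MMP14* and from -0.66 to -0.42 for *PLAU*. *MMP14* fell short of 1.5-fold with 1 FPKM added (0.58), and *PLAU* with equal sums (-0.44) and quantile normalization (-0.42). Accordingly 0 of the 8 genes were lower past 1.5-fold with equal sums and with quantile normalization, where 4.99% and 8.44% of all genes were. At 2-fold, 1 of the 8 was higher (*PLAT*) and 0 lower, while of all 12106 genes 388 were higher and 317 lower. At 1.2-fold, 3 of the 8 were higher and 2 lower, while of all 12106 genes 2881 were higher and 3990 lower.

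Among the other protease genes, 7 of 59 were higher past 1.5-fold as reported, against 2 with 1 FPKM added. The count was 21 with equal sums, 12 with quantile normalization and 12 of 68 without the FPKM limit. It was 2 with a mean of at least 5 FPKM, 1 at 2-fold and 25 at 1.2-fold. The 2 lower genes became 0 with a mean of at least 5 FPKM or at 2-fold and 10 at 1.2-fold. Of all 12106 genes, 1204 were higher, against 719 with 1 FPKM added, 2278 with equal sums and 1401 with quantile normalization. Without the FPKM limit 1726 of 14528 were higher. The count was 480 with a mean of at least 5 FPKM, 388 at 2-fold and 2881 at 1.2-fold. The 1361 lower genes became 611 with equal sums, 957 with a mean of at least 5 FPKM, 317 at 2-fold and 3990 at 1.2-fold. With equal sums and quantile normalization the limit was applied again to the scaled values, so the genes read could differ. Counts at another fold, limit, scaling or added constant differ by construction, and which scaling is the right one was not tested.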

Other observations

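Kallikreins, secreted serine proteases of squamous epithelium, lay below 0 in all 5 genes with a mean of at least 0.5 FPKM, under each scaling and added constant tried. *KLK11*, under that limit at 0.251 and 0.293 FPKM, lay above 0 (0.16). The kallikreins were not a planned list of their own but part of a list with membrane serine proteases and inhibitors. In that whole list, 9 of the 15 genes at this level lay above 0 as deposited. Of all genes, 56.4% lay below 0 as deposited and 36.3% with equal FPKM sums. *KLK7* was listed at 2.24 FPKM in normoxia and 1.13 FPKM in hypoxia (log2 change -0.93) and was the only one at least 1.5-fold lower. *KLK5*, at 63.3 and 52.3 FPKM, was the most abundant (-0.27), and *KLK8* stood at 16.1 and 11.1 FPKM (-0.53). *PRSS8* (prostasin), a membrane-anchored serine protease, was listed at 0.864 and 2.46 FPKM, 2.65-fold higher in hypoxia, while *ST14* (matriptase), its partner in epithelia, was nearly level at 6.55 and 6.83 FPKM. Of the 15 genes of this list with a mean of at least 0.5 FPKM, 1 was higher and 1 lower past 1.5-fold. This is 6.67% in each direction, under the 9.95% and 11.2% of all genes. Among 14 cathepsin and cystatin genes, proteases of the lysosome and their inhibitors, 1 (7.14%) was at least 1.5-fold higher and none was 1.5-fold lower. Of all genes, 9.95% and 11.2% were. The higher gene was *CTSK*, at 0.415 and 0.847 FPKM, under 0.5 FPKM in normoxia. With 1 FPKM added, 0 of the 14 were 1.5-fold higher. The most abundant of the 14 differed in sign. They were *CSTA* at 131.8 and 140.9 FPKM (0.10), *CTSL* at 123.5 and 127.8 (0.05), *CTSC* at 134.0 and 104.7 (-0.36) and *CTSB* at 95.7 and 129.6 (0.44).

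*F3* (tissue factor), the starter of the coagulation cascade that yields fibrin, was singled out after its values were seen. Its main transcript NM_001993 was listed at 778 FPKM in normoxia and 675 FPKM in hypoxia, a log2 change of -0.21. NM_001178096, which encodes a form without the membrane anchor, was listed at 16.2 and 6.90 FPKM, 2.32-fold lower in hypoxia (-1.22), and made up 2.03% and 1.01% of the summed FPKM. No test of the difference between the transcripts was possible.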
